A study of Mus musculus with 24 samples.

Results

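The genes described here are 27 components of the inhibitory synapse, given as a list of names with no rule on their values, though with earlier results of these data known: 12 subunits of GABA-A receptors, 4 of glycine receptors, both subunits of the GABA-B receptor, and 9 genes for receptor anchoring and trafficking, GABA uptake, chloride transport and GABA breakdown. Each was found by its symbol in the platform annotation, and all 27 were among the 19938 genes tested. RNA of the dissected hippocampus of male mice, 8 to 9 weeks old and on a mixed C57BL/6J-129sv background, was measured on 24 microarrays. There were 4 groups of 6 arrays: wild type (WT) basal, FoxO6 mutant basal, WT after learning and mutant after learning. The mutants are labelled FoxO6 -/- and null, FoxO6 being a forkhead transcription factor, and the basal mice of both genotypes had lived alone for 3 days or longer. The learning mice had been handled every day, had spent 10 min in the empty arena 24 h earlier, explored a pair of like objects there for 10 min and were killed 60 min afterwards. State may therefore differ in housing, which is labelled only for the basal mice. Handling and novelty go with state as well as learning does, and none of these can be told apart. Replicates are labelled biological, with no word on whether each is its own animal, so p-values measure only how these samples vary. In a whole hippocampus, fewer cells of a type and less RNA per cell cannot be told apart.

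GABA is the main inhibitory transmitter of the forebrain. GABA-A and glycine receptors are chloride channels built from several subunits, which the anchoring protein gephyrin holds at the synapse, while GABA-B receptors act through G proteins and potassium channels. How far an open GABA-A channel inhibits depends on intracellular chloride, which the cotransporter KCC2 (Slc12a5) lowers and NKCC1 (Slc12a2) raises. The composition of GABA-A receptors sets where they sit and how they gate: gamma subunits favour synapses, whereas receptors with delta or alpha5 subunits carry much of the tonic current in the hippocampus.

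Values are log2 signals, so that a difference of 1 is a doubling of signal, and differences are learning minus basal or mutant minus WT. Calls were made where limma's p, adjusted over all genes by Benjamini-Hochberg, was under 0.05. Array medians lay between 6.16 and 6.30 and arrays of a group correlated at 0.991 to 0.997 across genes, and the number of arrays limits the precision. Foxo6 itself, measured by 1 probe, differed by −0.73 at basal (adjusted p = 0.000128) and by −0.63 after learning (adjusted p = 0.000833). Of 15 activity-induced genes, 14 were called higher after learning in each genotype. Markers of hippocampal cells were present, with 10 of 12 dentate granule cell and 6 of 7 CA pyramidal cell markers above the median gene. Choroid plexus, a tissue beside the hippocampus, varied between arrays: the mean of its 15 markers ran from 5.87 to 6.83 in WT basal, 6.38 to 6.85 in mutant basal, 5.97 to 6.20 in WT learning and 5.93 to 6.78 in mutant learning arrays. Of the 27 members, 21 were brighter than the median gene. Gabra6, Gabre, Gabrq and Glra1 were dim, brighter than only 6.84% to 16.3% of genes, and signal over background was not used.

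The members split by class after the learning task. In WT, 18 of 27 were called, 11 higher and 7 lower, where the background over all genes was 43.3% (25.1% higher, 18.2% lower). In the mutant, 17 of 27 were called, 10 higher and 7 lower, beside a background of 41.3% (22.6% higher, 18.7% lower). Genes above the median level, as 21 of the 27 members are, were called more often. Of 9969 such genes tested alone, 3719 were called higher and 3086 lower in WT, and 3406 and 3260 in the mutant. In each genotype the share of these genes called in either direction was slightly above that of the 27 members. Whether the members differ from genes of like signal was not tested. After a further quantile normalization, 3992 genes were called higher and 4158 lower in WT, so that 49% of called genes were higher in place of 57.9%, and 10 members rose and 8 fell. Of the 16 GABA-A and glycine receptor subunits, 10 rose and 1 fell in WT, and 9 rose and 0 fell in the mutant. Of the other 11 members, 1 rose and 6 fell in WT, and 1 rose and 7 fell in the mutant. The median difference was 0.19 in WT and 0.15 in the mutant for the receptor channel subunits, and −0.13 and −0.27 for the other members, beside 0.05 and 0.06 over all 27 members and 0.03 over all genes in WT. Learning and basal groups did not overlap for 13 members in WT, where 25.2% of all genes did not overlap, and for 9 in the mutant, where the share was 22.7%. The split by class was drawn with these results known, and whether the classes differ was not tested.

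**Figure D1:**
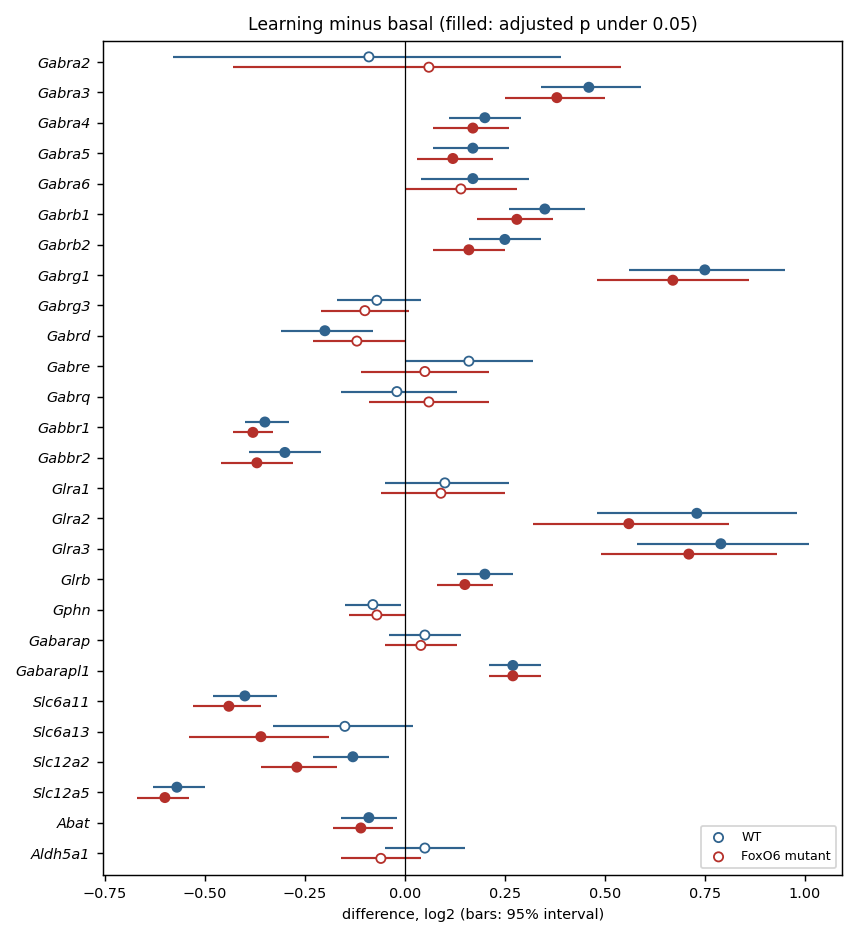
Difference between learning and basal arrays in log2 (x axis, bars are 95% confidence intervals) for each of the 27 members (y axis, ordered by role), WT in blue and FoxO6 mutant in red, with filled points called at an adjusted p under 0.05. Glra3, Gabrg1 and Glra2 lie farthest to the right (0.56 to 0.79) and Slc12a5 farthest to the left (−0.57 and −0.60), and the widest bars belong to Gabra2.

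The promoters of members that moved apart are shown here for comparison, as the 250 bases before the first RefSeq start listed for each gene on GRCm38.p6, 5′ to 3′ on the gene's own strand. Slc12a5 (chr2:164960596-164960845, plus strand) and Gabbr2 (chr4:46991715-46991964, minus strand) fell, and Gabrg1 (chr5:70842618-70842867, minus strand) and Glra3 (chr8:55940168-55940417, plus strand) rose. Capitals mark the match to the AP-1 element.
Slc12a5: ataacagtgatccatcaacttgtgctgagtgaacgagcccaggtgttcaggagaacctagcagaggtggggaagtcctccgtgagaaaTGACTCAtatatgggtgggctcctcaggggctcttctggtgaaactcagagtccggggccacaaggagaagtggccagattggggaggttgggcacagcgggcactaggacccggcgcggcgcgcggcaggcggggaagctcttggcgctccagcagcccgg
Gabbr2: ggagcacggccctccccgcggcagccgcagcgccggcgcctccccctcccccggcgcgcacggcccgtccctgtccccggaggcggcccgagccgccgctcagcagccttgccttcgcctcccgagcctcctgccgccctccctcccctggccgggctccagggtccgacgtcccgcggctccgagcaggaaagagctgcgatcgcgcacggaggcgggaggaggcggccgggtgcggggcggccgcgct
Gabrg1: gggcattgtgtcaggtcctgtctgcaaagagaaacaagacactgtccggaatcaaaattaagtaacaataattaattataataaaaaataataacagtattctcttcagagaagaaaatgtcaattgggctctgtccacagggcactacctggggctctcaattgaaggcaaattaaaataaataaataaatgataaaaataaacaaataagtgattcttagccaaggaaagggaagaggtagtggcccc
Glra3: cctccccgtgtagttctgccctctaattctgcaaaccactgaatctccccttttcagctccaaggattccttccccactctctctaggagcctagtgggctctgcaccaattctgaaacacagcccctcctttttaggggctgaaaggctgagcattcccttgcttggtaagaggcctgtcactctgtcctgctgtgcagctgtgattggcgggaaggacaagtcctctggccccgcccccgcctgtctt
RefSeq promoters of 300 bases (250 before to 50 after the start) were at hand for 23 of the 27 members, in 30 entries; Abat, Gabrd, Glra1 and Slc12a2 had none. These were searched on both strands for 4 elements bound by factors of the activity response or by FoxO proteins, and no element contains another. The AP-1 element TGANTCA was in 1 of the 30 member promoters, that printed for Slc12a5, as TGACTCA beginning 162 bases before the start, and in 7.81% of all 32851 promoters. Slc12a5 has a further promoter entry (250 bases at chr2:164967738-164967987, 67.2% G and C), which holds no match. The cAMP response element TGACGTCA was in 0 of the 30 and in 1.79% of all promoters. The FoxO element GTAAACA was in 0 of the 30 and in 3.65% of all, and the Egr element GCGTGGGCG was in 0 of the 30 and in 0.612% of all. The base composition of the 4 printed stretches differed, with 61.2% G and C in Slc12a5, 80.8% in Gabbr2, 35.6% in Gabrg1 and 56% in Glra3. Over the 300 bases of each gene's first entry, the 11 members that rose on average over both genotypes had a median of 56% and the 6 that fell and have a promoter 69.8%, beside 57.3% and 62.3% for all genes called in these directions. Across 15614 genes, G and C content correlated with the learning difference at rho = −0.18, and across 19919 genes the length of the gene correlated with it at rho = −0.06. These are descriptions across genes, which are not independent replicates.

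Of 4 glycine receptor subunits, 3 rose in both genotypes. Glra3, the alpha3 subunit, had the largest difference of the 27 members in each genotype. It ran from 5.51 to 5.79 (median 5.71) in WT basal arrays and from 6.26 to 6.68 (median 6.49) after learning. In the mutant it ran from 5.43 to 5.95 (median 5.48) at basal and from 5.91 to 6.62 (median 6.27) after learning. Every WT learning array was above every WT basal array, whereas in the mutant the lowest learning array lay just under the highest basal one. The difference was 0.79 (1.73-fold, 95% interval 0.58 to 1.01, adjusted p = 3.6e-07) in WT and 0.71 (1.64-fold, 0.49 to 0.93, adjusted p = 2.13e-06) in the mutant. Of all genes, 99.5% had a lower difference in WT.

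Glra2, the alpha2 subunit that prevails in the developing brain, ran from 6.55 to 7.25 (median 6.91) at basal and from 7.37 to 7.92 (median 7.59) after learning in WT. In the mutant the ranges were 6.64 to 7.52 (median 7.11) and 7.48 to 7.95 (median 7.59). The WT groups were apart and the mutant groups overlapped narrowly. Glra2 rose by 0.73 in WT (1.66-fold, 0.48 to 0.98, adjusted p = 1.09e-05) and by 0.56 in the mutant (1.48-fold, 0.32 to 0.81, adjusted p = 0.00034). Glrb, the beta subunit that binds gephyrin, was bright and rose less. It went from 10.89 to 11.01 (median 10.95) at basal to 11.10 to 11.23 (median 11.14) in WT, and from 10.90 to 11.05 (median 10.96) to 11.00 to 11.21 (median 11.12) in the mutant. The rise was 0.20 in WT (1.15-fold, adjusted p = 1.58e-05), with groups apart, and 0.15 in the mutant (1.11-fold, adjusted p = 0.000539), with groups that overlapped. Glra1, the alpha1 subunit of spinal cord and brainstem receptors, was dim at 4.72 to 5.28 over all arrays and was not called (0.10 and 0.09, adjusted p = 0.287 and 0.359).

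Among GABA-A subunits Gabrg1, a gamma subunit also found in glia, rose most. Its WT arrays ran from 7.43 to 7.83 (median 7.57) at basal and from 8.16 to 8.58 (median 8.38) after learning, and its mutant arrays from 7.34 to 7.73 (median 7.64) and from 7.93 to 8.69 (median 8.22). Both pairs of groups were apart. Gabrg1 rose by 0.75 in WT (1.69-fold, 0.56 to 0.95, adjusted p = 1.04e-07) and by 0.67 in the mutant (1.59-fold, 0.48 to 0.86, adjusted p = 8.29e-07). The mean of 12 astrocyte markers was 10.24 ± 0.04 and 10.27 ± 0.05 in WT basal and learning arrays (SD, n = 6 each) and 10.26 ± 0.06 and 10.24 ± 0.06 in those of the mutant. The other gamma subunit, Gabrg3, lay between 7.82 and 8.14 and was not called (−0.07 in WT and −0.10 in the mutant, adjusted p = 0.334 and 0.146).

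Of 5 alpha subunits, 4 were called in WT and 3 in the mutant, and all of these calls were rises. Gabra3 ran from 9.51 to 9.76 (median 9.70) at basal and from 10.03 to 10.21 (median 10.13) after learning in WT, and from 9.47 to 9.87 (median 9.74) and 9.89 to 10.23 (median 10.07) in the mutant. In both genotypes the groups did not overlap, and the rise was 0.46 (1.38-fold, adjusted p = 1.77e-07) and 0.38 (1.3-fold, adjusted p = 5.56e-06). Gabra4, which pairs with delta subunits outside synapses, ran from 9.95 to 10.15 (median 10.04) at basal and from 10.12 to 10.31 (median 10.24) after learning in WT. Its mutant ranges were 9.94 to 10.11 (median 10.02) and 9.99 to 10.29 (median 10.21). The groups overlapped in both genotypes, and the rise was 0.20 in WT (1.15-fold, adjusted p = 0.000584) and 0.17 in the mutant (1.12-fold, adjusted p = 0.00363).

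Gabra5, the alpha5 subunit that is abundant in the hippocampus, ran from 10.96 to 11.25 (median 11.11) at basal and from 11.12 to 11.34 (median 11.29) after learning in WT, and from 11.05 to 11.30 (median 11.24) and 11.24 to 11.41 (median 11.33) in the mutant. The groups overlapped, and the rise was 0.17 in WT (1.12-fold, adjusted p = 0.00424) and 0.12 in the mutant (1.09-fold, adjusted p = 0.0375). The mutant call ended when mutant learning array 1, 2, 4 or 6 or mutant basal array 4 or 5 was left out (adjusted p up to 0.129). It also ended after a further quantile normalization (0.08, adjusted p = 0.139 by limma). The same held without limma's mean-variance trend (adjusted p = 0.0723) and with the mean of the interneuron markers as a covariate (adjusted p = 0.0525). The WT call ended without WT basal arrays 4, 5 and 6 together (0.12, adjusted p = 0.089), the arrays with the lowest choroid plexus signal in earlier results. Gabra6, known chiefly from cerebellar granule cells, ran from 4.18 to 4.36 (median 4.30) at basal and from 4.33 to 4.66 (median 4.45) after learning in WT, with overlapping groups and a rise of 0.17 (1.13-fold, adjusted p = 0.0351). It ran from 4.25 to 4.54 (median 4.36) and 4.33 to 4.67 (median 4.57) in the mutant and was not called there (0.14, adjusted p = 0.096), but it was called without mutant learning array 4 or 5 or mutant basal array 6 (0.17 to 0.18, adjusted p from 0.0355 to 0.0462). The WT call of this dim gene ended without WT learning array 2, 3 or 4 or WT basal array 3, 4 or 5 (adjusted p up to 0.107) and after a further quantile normalization (0.07, adjusted p = 0.349). The mean of 6 cerebellar granule cell markers was 6.75 in both basal groups and 6.71 in both learning groups.

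Both beta subunits rose. Gabrb1 ran from 9.88 to 10.13 (median 10.00) at basal and from 10.20 to 10.45 (median 10.37) after learning in WT, and from 9.94 to 10.15 (median 10.05) and 10.19 to 10.41 (median 10.33) in the mutant. The groups were apart in both genotypes, with rises of 0.35 (1.28-fold, adjusted p = 3.22e-07) and 0.28 (1.21-fold, adjusted p = 1.37e-05). Gabrb2, the beta subunit of the most common GABA-A receptors, ran from 11.08 to 11.30 (median 11.18) at basal and from 11.36 to 11.52 (median 11.46) after learning in WT. Its mutant ranges were 11.12 to 11.33 (median 11.28) and 11.30 to 11.51 (median 11.44). The WT groups were apart and the mutant groups overlapped narrowly. The rise was 0.25 in WT (1.19-fold, adjusted p = 3.29e-05) and 0.16 in the mutant (1.12-fold, adjusted p = 0.00347). Gabrb2 is the only member with more than 1 probe, and its 3 probes rose by 0.21 to 0.45 in WT and by 0.12 to 0.37 in the mutant.

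Gabrd was the subunit called lower in WT. This delta subunit of extrasynaptic receptors ran from 7.57 to 7.68 (median 7.60) at basal and from 7.29 to 7.56 (median 7.39) after learning in WT, so that every learning array was below every basal one. It fell by 0.20 in WT (0.872-fold, −0.31 to −0.08, adjusted p = 0.00566). In the mutant it ran from 7.50 to 7.64 (median 7.56) at basal and from 7.26 to 7.63 (median 7.44) after learning, overlapping and not called (−0.12, adjusted p = 0.106). That difference was called without mutant learning array 1 (−0.15, adjusted p = 0.0324), and the learning responses of the genotypes were not called as different. Gabrd is known for its level in dentate granule cells, whose 12 markers had a mean of 8.02 ± 0.06 and 8.04 ± 0.08 in WT basal and learning arrays and 7.90 ± 0.06 and 7.91 ± 0.05 in those of the mutant. Single markers moved both ways, with 4 called higher and 2 lower in WT, and 3 and 4 in the mutant. The rarer subunits Gabre and Gabrq were dim, at 4.65 to 5.31 and 4.78 to 5.28, and neither was called (adjusted p from 0.0988 to 0.863 over both genotypes).

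Some subunit genes are neighbours in the genome. By the RefSeq annotation Gabrg1, Gabra2, Gabra4 and Gabrb1 lie beside each other on chromosome 5. Averaged over both genotypes, Gabrg1 rose by 0.71 (0.57 to 0.85), Gabra4 by 0.18 (0.12 to 0.25) and Gabrb1 by 0.31 (0.25 to 0.38). Gabra2 differed by −0.02 with a wide interval of −0.36 to 0.33, and none of these differences was tested against another. On the X chromosome Gabre, Gabra3 and Gabrq are near each other, and of these Gabra3 was called (0.42, 0.33 to 0.51), while the dim probes of Gabre (0.11, −0.01 to 0.22) and Gabrq (0.02, −0.08 to 0.12) were not. On chromosome 11 the dim Gabra6 (0.16, 0.06 to 0.25) lies near Gabrb2 (0.20, 0.14 to 0.27), and both were called on this average. On chromosome 7 Gabra5 was called (0.14, 0.08 to 0.21) and the nearby Gabrg3 was not (−0.08, −0.16 to −0.01).

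**Figure D2:**
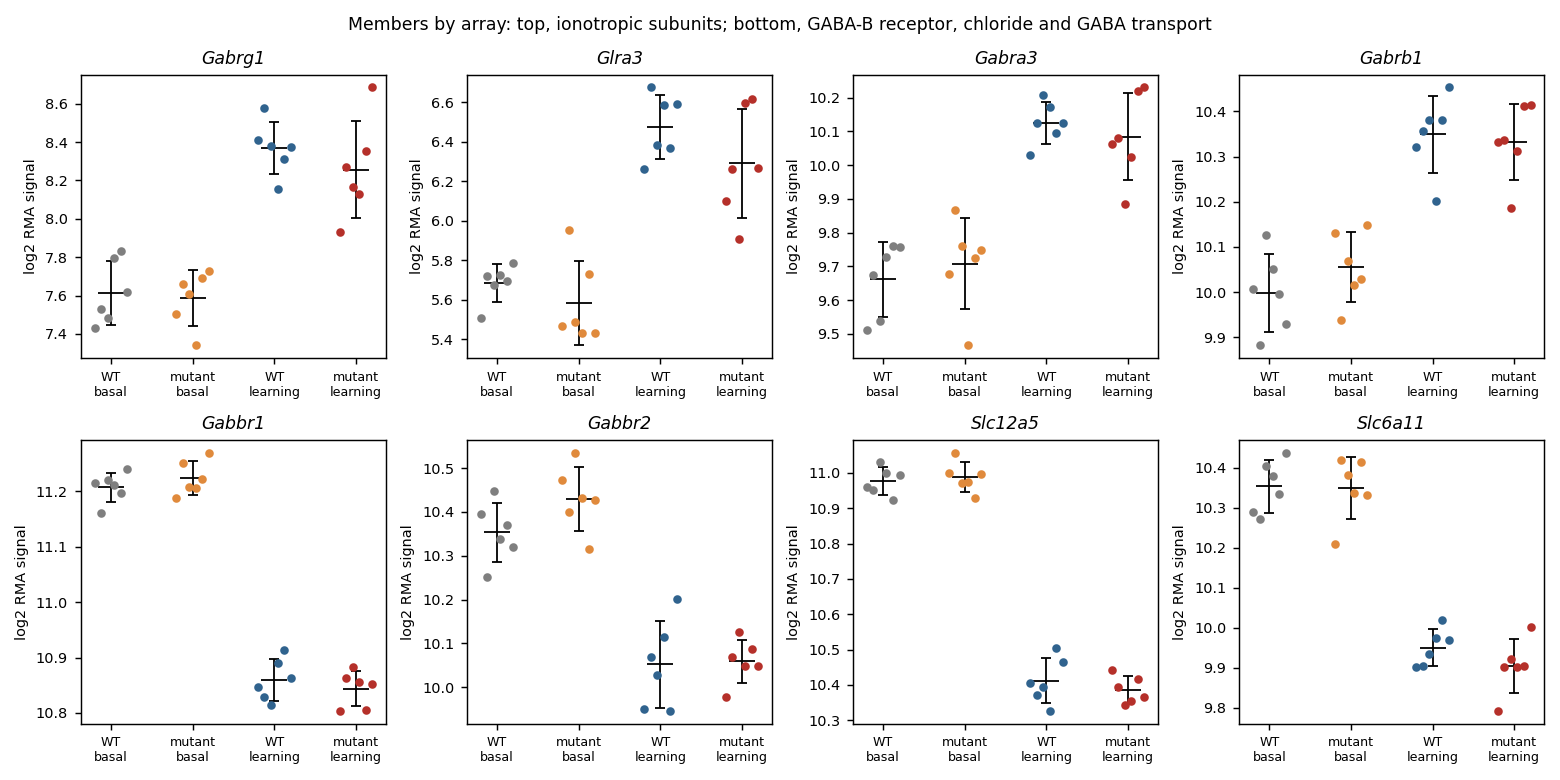
Log2 signal (y axis) of 8 members in every array of the 4 groups (x axis), points being arrays and bars the mean ± SD of 6 arrays. In the top row Gabrg1, Gabra3 and Gabrb1 are higher in every learning array than in any basal array of the same genotype, as is Glra3 in WT; in the bottom row Gabbr1, Gabbr2, Slc12a5 and Slc6a11 are lower in every learning array.

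Both subunits of the GABA-B receptor fell. Gabbr1, which binds GABA, ran from 11.16 to 11.24 (median 11.21) at basal and from 10.81 to 10.91 (median 10.85) after learning in WT, and from 11.19 to 11.27 (median 11.21) and 10.80 to 10.88 (median 10.85) in the mutant. No learning array came near a basal one. Gabbr1 fell by 0.35 in WT (0.786-fold, −0.40 to −0.29, adjusted p = 7.1e-12) and by 0.38 in the mutant (0.769-fold, −0.43 to −0.33, adjusted p = 1.08e-12). Its SD within groups was 0.03, a spread that 0.0502% of genes undercut. Gabbr2, which couples to the G protein, ran from 10.25 to 10.45 (median 10.35) at basal and from 9.95 to 10.20 (median 10.05) after learning in WT, and from 10.31 to 10.54 (median 10.43) and 9.98 to 10.12 (median 10.06) in the mutant. The groups were apart in both genotypes. Gabbr2 fell by 0.30 (0.811-fold, adjusted p = 9.57e-07) and by 0.37 (0.773-fold, adjusted p = 2.67e-08).

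Slc12a5 fell most of all members. This neuronal cotransporter, KCC2, ran from 10.92 to 11.03 (median 10.98) at basal and from 10.33 to 10.50 (median 10.40) after learning in WT, and from 10.93 to 11.06 (median 10.99) and 10.34 to 10.44 (median 10.38) in the mutant. Learning and basal arrays were far apart in both genotypes. Slc12a5 fell by 0.57 in WT (0.676-fold, −0.63 to −0.50, adjusted p = 1.63e-14) and by 0.60 in the mutant (0.659-fold, −0.67 to −0.54, adjusted p = 3.82e-15). A lower difference was found for 1.2% of genes in WT and 1.04% in the mutant. The mean of 7 CA pyramidal cell markers was 8.44 ± 0.07 and 8.29 ± 0.07 in WT basal and learning arrays, and 8.48 ± 0.07 and 8.32 ± 0.05 in those of the mutant, with 0 of 7 called higher and 3 lower in each genotype. Their part in the fall of Slc12a5 was not tested.

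Slc12a2, the importing cotransporter NKCC1, ran from 9.91 to 10.15 (median 10.00) at basal and from 9.74 to 9.99 (median 9.90) after learning in WT, and from 9.97 to 10.11 (median 10.04) and 9.62 to 9.89 (median 9.77) in the mutant. The WT groups overlapped and the mutant groups did not. It fell by 0.13 in WT (0.912-fold, adjusted p = 0.0219) and by 0.27 in the mutant (0.831-fold, −0.36 to −0.17, adjusted p = 2.16e-05). The WT call ended without WT learning array 4 or WT basal array 3 or 6 (adjusted p up to 0.0719) and with the mean of 10 meningeal markers as a covariate (−0.10, adjusted p = 0.0518). With the choroid plexus markers as covariate, where this cotransporter is also abundant, it was −0.13 in WT (adjusted p = 0.0368).

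Genes of GABA uptake fell too, Slc6a11 in both genotypes and Slc6a13 in the mutant. Slc6a11, the astrocyte transporter GAT-3, ran from 10.27 to 10.44 (median 10.36) at basal and from 9.90 to 10.02 (median 9.95) after learning in WT, and from 10.21 to 10.42 (median 10.36) and 9.79 to 10.00 (median 9.90) in the mutant. Every learning array lay below every basal array. The fall was 0.40 in WT (0.756-fold, adjusted p = 1.19e-09) and 0.44 in the mutant (0.735-fold, adjusted p = 1.56e-10). Of the 12 astrocyte markers, 4 were called higher and 6 lower in WT, and 3 and 7 in the mutant.

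Slc6a13, the transporter GAT-2 known from the meninges, ran from 6.92 to 7.24 (median 6.98) at basal and from 6.78 to 7.13 (median 6.81) after learning in WT, overlapping and not called (−0.15, adjusted p = 0.157). In the mutant it ran from 6.78 to 7.17 (median 6.94) at basal and from 6.34 to 6.88 (median 6.52) after learning. The mutant groups overlapped, and the difference of −0.36 was called (0.777-fold, −0.54 to −0.19, adjusted p = 0.000794). Of the 15 choroid plexus markers, 0 were called higher and 1 lower in WT and 0 and 5 in the mutant, and of the 10 meningeal markers 2 and 4, and 2 and 6. The mean of the choroid plexus markers was 6.34 ± 0.41 and 6.10 ± 0.08 in WT basal and learning arrays and 6.62 ± 0.19 and 6.28 ± 0.30 in those of the mutant, and that of the 10 meningeal markers was 7.13 ± 0.09 and 7.08 ± 0.05 in WT and 7.13 ± 0.03 and 7.05 ± 0.10 in the mutant. With the choroid plexus mean as a covariate the WT difference of Slc6a13 was −0.22 (adjusted p = 0.0341) and the mutant one −0.46 (adjusted p = 8.47e-05). With the meningeal mean as a covariate they were −0.11 (adjusted p = 0.302) and −0.29 (adjusted p = 0.00678).

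Anchoring, trafficking and breakdown genes moved little, apart from Gabarapl1. This relative of the GABA-A receptor-associated protein, which also acts in autophagy, ran from 11.03 to 11.18 (median 11.13) at basal and from 11.34 to 11.44 (median 11.39) after learning in WT, and from 11.07 to 11.18 (median 11.14) and 11.34 to 11.50 (median 11.39) in the mutant. The groups were apart, and Gabarapl1 rose by 0.27 in each genotype (1.21-fold, adjusted p = 3e-08 in WT and 2.95e-08 in the mutant). Gabarap itself was not called (0.05 and 0.04, adjusted p = 0.421 and 0.485). Gphn, the scaffold gephyrin, ran from 9.91 to 10.03 at basal and from 9.78 to 9.98 after learning in WT, and from 9.94 to 10.07 and 9.90 to 9.98 in the mutant. It was not called in either genotype (−0.08 and −0.07, adjusted p = 0.0713 and 0.129) but was called over both (−0.07, −0.12 to −0.02, adjusted p = 0.0137). That call ended with the choroid plexus or the meningeal markers as a covariate (−0.06 each, adjusted p = 0.0697 and 0.0668).

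Abat, the transaminase that breaks down GABA, ran from 10.71 to 10.83 (median 10.76) at basal and from 10.63 to 10.73 (median 10.69) after learning in WT, and from 10.69 to 10.89 (median 10.80) and 10.61 to 10.79 (median 10.70) in the mutant. The groups overlapped, and it fell by 0.09 in WT (0.94-fold, adjusted p = 0.0432) and by 0.11 in the mutant (0.93-fold, adjusted p = 0.0176). The WT call held only without WT learning array 3 or WT basal array 1 or 6 among the 12 WT arrays left out in turn (adjusted p up to 0.104). The mutant call ended without mutant learning array 2 or 4 or mutant basal array 2 (adjusted p up to 0.0568). With the meningeal markers as a covariate Abat was called in neither genotype (adjusted p = 0.074 and 0.0572), and in WT it was not called with the choroid plexus markers as a covariate (adjusted p = 0.056) or without WT basal arrays 4, 5 and 6 (−0.06, adjusted p = 0.266). Aldh5a1, the next enzyme of the pathway, was not called (0.05 and −0.06, adjusted p = 0.456 and 0.359).

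Averaged over both genotypes, 20 of 27 members were called, 11 higher and 9 lower, against 54.8% of all genes (31.7% higher and 23.1% lower). Of the 9969 genes above the median level, tested alone, 4081 were called higher and 3626 lower, again a share slightly above that of the members. The calls that this average adds to those of WT were Slc6a13 (−0.26, adjusted p = 0.000541) and Gphn. Gabra6 (0.16, adjusted p = 0.0057), called in WT alone, was not called after a further quantile normalization (0.06, adjusted p = 0.214).

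The WT and mutant responses share no array and ran the same way for most members. In all, 16 members were called in both genotypes in the same direction, where 34.7% of all genes were, 0 were called in opposite directions, and 24 of 27 had the same sign. Across the 27 members the differences correlated at r = 0.976 (rho = 0.975), and across all genes at r = 0.921 (rho = 0.885), with members of a shared locus or complex among the points. For 8 members the groups were apart in the same direction in both genotypes, as they were for 17.7% of all genes. Gabra6 and Gabrd passed the threshold in WT and not in the mutant, and Slc6a13 the reverse. The WT call of Gabrd and the mutant call of Slc6a13 held in every setting that tested them. Each was also called in the other genotype in 1 setting, as given above, whereas the WT call of Gabra6 was itself lost in some settings. In none of the 3 genes was the difference between genotypes called. The interaction, the mutant response minus the WT response, was called for 0 of 27 members and for 0% of all genes. It lay below 0 for 22 of 27 members and for 10858 of 19938 genes, a difference in share that was not tested. At an unadjusted p under 0.05 it held 510 genes, or 2.56%, and 1 member, Slc12a2 (−0.14, adjusted p = 1 by limma). For 18 of 27 members its 95% interval lay within 0.25 of 0, and the exceptions were Gabra2, Gabra3, Gabrg1, Gabre, Gabrq, Glra2, Glra3, Slc6a13 and Slc12a2.

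**Figure D3:**
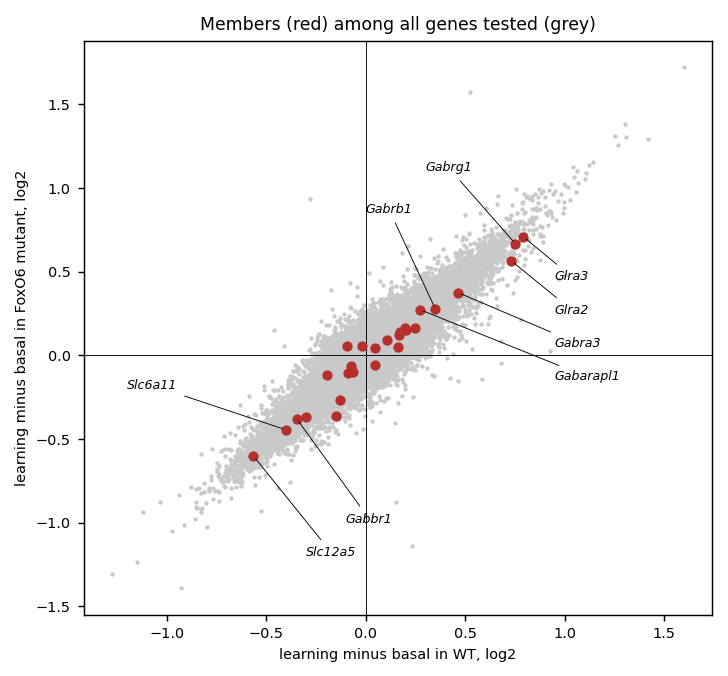
Learning minus basal difference in log2 in WT (x axis) against that in the FoxO6 mutant (y axis), with the 27 members in red over all other genes tested in grey. The members lie close to a rising line (r = 0.976), from Slc12a5 at −0.57 and −0.60 to Glra3 at 0.79 and 0.71.

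Between mutant and WT, 0 of 27 members were called in either state. The background was 0.1% of all genes at basal, 0.0752% after learning and 0.391% averaged over both. At an unadjusted p under 0.05 there was 1 member at basal, where 4.5% of all genes were, 2 after learning (7.33%) and 2 averaged over both states (8.86%). Gabra5 was higher in the mutant by 0.10 at basal (0.01 to 0.20, adjusted p = 1 by limma) and by 0.06 after learning (−0.04 to 0.15). Slc6a13 differed by −0.07 at basal (−0.24 to 0.11) and by −0.28 after learning (−0.45 to −0.11, adjusted p = 0.36). Of its mutant learning arrays, 4 of 6 lay below every WT learning array. The mean of the choroid plexus markers was 6.28 in mutant and 6.10 in WT learning arrays, with 15 of 15 above 0, and that of the meningeal markers was 7.05 and 7.08, with 7 of 10 below 0; their part in the difference was not tested. Slc12a2 differed by 0.02 at basal and by −0.11 after learning (−0.21 to −0.02, adjusted p = 0.596).

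Most genotype differences were bounded narrowly. The 95% interval was within 0.25 of 0 for 24 of 27 members at basal, all but Gabra2, Glra2 and Glra3. It was so for 22 after learning, all but these and Gabrg1 and Slc6a13, and for 23 averaged over both states. Glra2 was at 0.22 at basal (−0.03 to 0.47) and Glra3 at −0.18 after learning (−0.40 to 0.03). For Slc12a5 the intervals were −0.05 to 0.08 at basal and −0.09 to 0.04 after learning, and for Gabbr1 −0.04 to 0.07 and −0.07 to 0.04. Interneuron markers were above 0 in 17 of 18 at basal and 14 of 18 after learning, and dentate granule cell markers below 0 in 9 of 12 in each state. Their part in these differences was not tested.

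**Figure D4:**
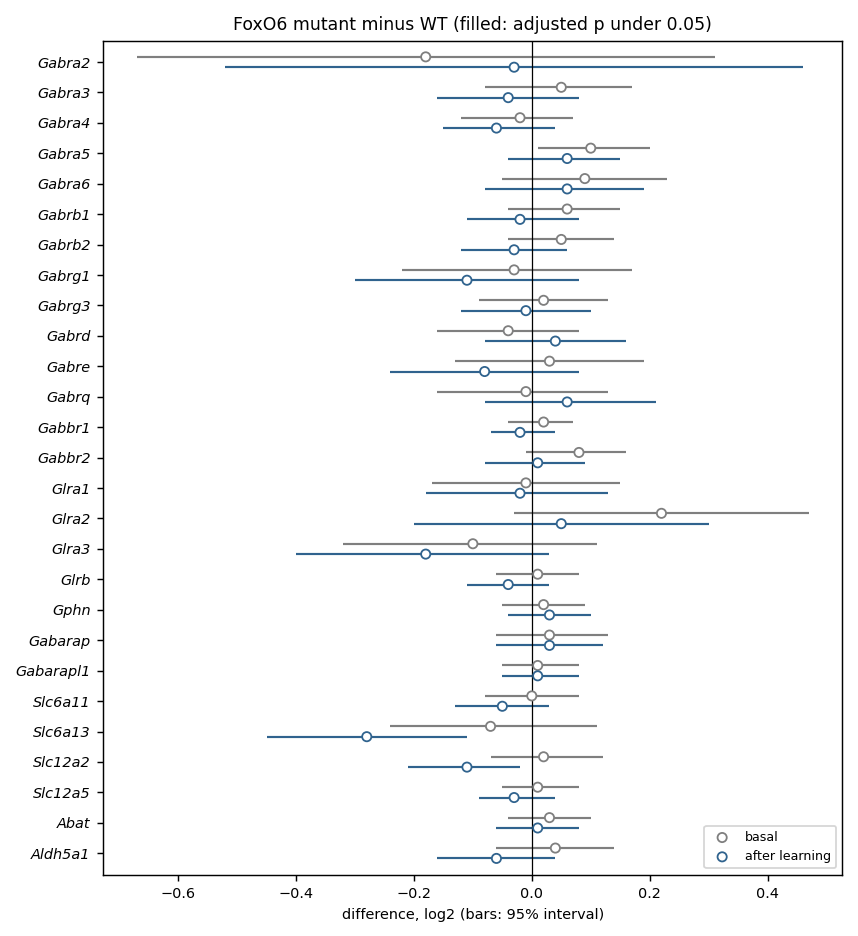
Difference between FoxO6 mutant and WT arrays in log2 (x axis, bars are 95% confidence intervals) for each of the 27 members (y axis), basal in grey and after learning in blue. All points are open, since 0 members were called, and the intervals of Slc6a13 and Slc12a2 after learning and of Gabra5 at basal leave out 0.

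Gabra2, the alpha2 subunit found at the axon initial segment, varied within every group. Its WT basal arrays ran from 9.35 to 10.78 (median 10.50), mutant basal from 9.20 to 10.74 (median 10.09), WT learning from 9.63 to 10.88 (median 10.37) and mutant learning from 9.46 to 10.45 (median 10.33). The range within a group was 0.99 to 1.54, where the median of the other members was 0.19 to 0.24 and the widest other was 0.88 (Glra2). Its SD within groups was 0.50, and 99.8% of all genes had a smaller one. Low arrays were found in all 4 groups: WT basal 5, mutant basal 5, WT learning 2 and 3 and mutant learning 4 were below 10, while the other arrays were above it. Neither state nor genotype was called (−0.09 in WT, −0.58 to 0.39; −0.18 at basal, −0.67 to 0.31). The labels give a mixed C57BL/6J-129sv background for all groups, and C57BL/6J mice are known for low Gabra2 RNA; which alleles the mice carried was not tested.

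**Figure D5:**
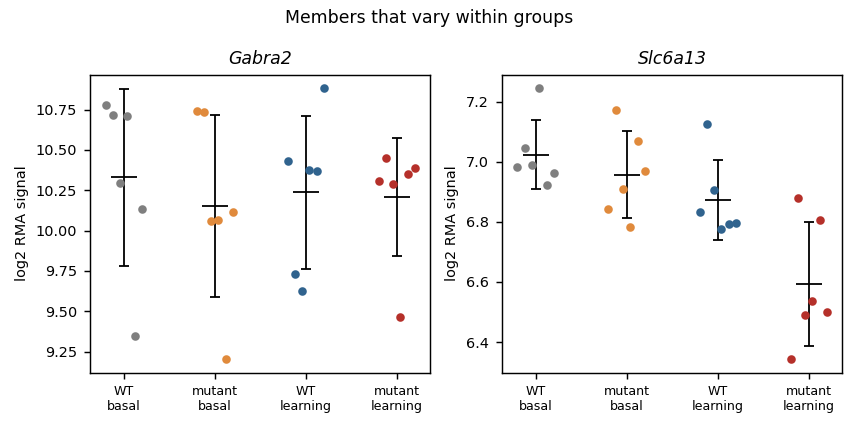
Log2 signal (y axis) of Gabra2 and Slc6a13 in every array of the 4 groups (x axis), points being arrays and bars the mean ± SD of 6 arrays. Gabra2 spans 0.99 to 1.54 within each group, with 1 or 2 low arrays in each, and Slc6a13 is lowest in the mutant learning arrays (6.34 to 6.88).

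Of other genes of inhibitory transmission, 59 were listed and 56 tested. In WT 8 rose and 26 fell after learning, and in the mutant 7 rose and 30 fell. Over all genes the shares were 25.1% higher and 18.2% lower in WT and 22.6% and 18.7% in the mutant, and the counts of the lists that follow, some of only a few genes, stand beside the same shares. Of 22 postsynaptic organisers and receptor partners, 3 rose and 13 fell in WT and 3 and 14 in the mutant. Nlgn2, the neuroligin of inhibitory synapses, fell by 0.57 in WT (0.673-fold, adjusted p = 8.48e-11) and 0.67 in the mutant (0.626-fold, adjusted p = 2.77e-12). Its WT arrays ran from 9.25 to 9.37 at basal and from 8.58 to 8.89 after learning, well apart. Nlgn3 fell by 0.46 and 0.44 (adjusted p = 6.99e-12 and 1.63e-11), and Iqsec3, a gephyrin-binding exchange factor, by 0.46 and 0.55 (adjusted p = 1.6e-10 and 4.43e-12).

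Of 14 other genes of chloride and bicarbonate handling, 2 rose and 8 fell in WT and 2 and 9 in the mutant. Clcn2, a chloride channel, fell by 0.56 and 0.53 (adjusted p = 9.68e-12 and 2.73e-11), Wnk2, a kinase that regulates the cotransporters, by 0.43 and 0.48 (adjusted p = 1.1e-08 and 1.25e-09), and the anion exchanger Slc4a3 by 0.28 and 0.37 (adjusted p = 3.32e-06 and 4.45e-08). Of 7 GABA-B partners, 1 rose and 3 fell in each genotype. Kcnj6, a potassium channel opened by the receptor, fell by 0.42 and 0.32 (adjusted p = 8.48e-07 and 5.65e-05), its partner Kcnj3 by 0.18 and 0.20 and the receptor-binding Ajap1 by 0.25 and 0.19.

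The presynaptic side was mixed. Of 8 genes of GABA and glycine synthesis, release and other transport, 2 rose and 2 fell in WT and 1 rose and 4 fell in the mutant. Slc32a1, the vesicular transporter, fell by 0.23 and 0.26 (adjusted p = 6.19e-05 and 1.27e-05), and the glycine transporter Slc6a9 by 0.38 and 0.43 (adjusted p = 9.04e-07 and 1.67e-07). Gad1, which makes GABA, rose by 0.12 and 0.10 (adjusted p = 0.00396 and 0.0138). The mean of 18 interneuron markers was 8.45 and 8.50 in WT basal and learning arrays and 8.56 and 8.58 in those of the mutant. Single interneuron markers moved both ways, with 6 called higher and 5 lower in WT, and 5 and 7 in the mutant. Of 5 further receptor subunits, 0 were called in either genotype and 2 over both, Gabrr1 (0.11, adjusted p = 0.031) and Glra4 (0.13, adjusted p = 0.0393).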

How the data were processed

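RNA of 24 hippocampus samples was measured on Affymetrix Mouse Gene 1.0 ST arrays. Values were deposited on the log2 scale after RMA by the authors, per the submitters' processing notes; RMA corrects the background, equalises the array quantiles and summarises probes, and its version is not given in the sources. Of 35511 probes, 21789 carry 1 gene symbol in the platform annotation of 2016, and for 999 genes with several probes the one with the highest mean was used, which left 19938 genes, with no filter on dim ones. In R 4.3.3 with limma 3.58.1, 1 linear model with a mean for each group and eBayes with a trend (20 residual degrees of freedom) gave 7 two-sided comparisons, with Benjamini-Hochberg adjustment across all genes. Intervals are at 95%. The script was tested on simulated data. Members and lists were chosen with earlier results of these data known. All members are reported; of related lists, up to 3 called genes with the smallest p are named. Tried as alternatives were 39 settings, 24 of which leave out 1 array, 37 planned and 2 chosen after seeing the data. Markers of choroid plexus, meninges, astrocytes, interneurons, granule and pyramidal cells were followed; of oligodendrocyte markers 2 rose and 2 fell in WT and 3 and 3 in the mutant after learning, and of thalamic ones 2 and 4, and 2 and 3.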

Additional observations from a re-analysis of the deposited data

Results flagged for a closer look

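In 4 of 108 groups of 6 arrays a member had 1 array far from the others by Dixon's 95% limit, which chance alone gives in about 5% of groups. Gabra2 was lowest in mutant learning array 4 at 9.46, where the next was 10.29. Gabra5 was lowest in WT learning array 1 at 11.12 (next 11.27). Gabarap was lowest in WT basal array 6 at 10.43 (next 10.60). Slc6a13 was highest in WT learning array 2 at 7.13 (next 6.91).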

How the results depend on the processing

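The count of members called after learning ran over all settings from 15 to 19 in WT (15 to 18 with 1 array left out), from 15 to 18 in the mutant (15 to 18) and from 18 to 22 averaged over both genotypes (20 to 21). No difference of a member that was called changed direction. The counts between genotypes and for the interaction were 0 in every setting. In every setting that tested the member, 14 of 18 calls held in WT, 15 of 17 in the mutant and 18 of 20 over both. Settings without genes below the median level or without the chromosome of Foxo6 did not test some members. The exceptions were Gabra5, Gabra6, Slc12a2 and Abat in WT, Gabra5 and Abat in the mutant and Gabra6 and Gphn over both. Gphn, not called in WT, was called there in 7 settings: a further quantile normalization (−0.14, adjusted p = 0.000682 by limma), centring on array medians (0.048), genes above the median level alone (0.0425), and without WT learning array 2, WT basal array 5 or 6, or WT basal arrays 4, 5 and 6 together (0.0381 to 0.0491). In the mutant it was called after the quantile normalization (−0.10, adjusted p = 0.00984). With the replicate number as a block, 17 members were called in WT, 16 in the mutant and 20 over both, and Gabra6 in WT (adjusted p = 0.0514) and Gabra5 in the mutant (0.0539) lost their call. The numbers do not pair the samples: 7 of 36 same-numbered pairs had residuals correlated above 0.1, and 3 of 24 arrays matched best with their own number. Members near background limit what can be said of Gabra6, Gabre, Gabrq and Glra1.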
